A study of Mus musculus with 24 samples.

Results

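The cell division and DNA replication genes described here are a list of 40 symbols of genes that copy DNA and divide the cell. Of the 40, 39 were counted in a table of 17811 genes and 37 passed a filter on low counts, which left 9328 genes tested in all. Bub1 and Kif11 were counted but too low to test, and the level of Cdt1 was not analysed here. The filter asked for at least 4 libraries with about 6.65 CPM or more (CPM is the UMI count of a gene scaled to a library of 1e6 counts); all 37 met it on libraries outside the lowest zone, and 17 of them reached it in all 4 libraries of the highest zone. The RNA came from the jejunal epithelium of 4 C57BL/6 mice, all male and 10 weeks old, fed regular chow, with no allele or agent named in the labels. Cells released with EDTA were stained for CD73 and CD26, 2 surface enzymes used to place a cell along the villus, and sorted by FACS into 6 zones from V1, the most bottom, to V6, the tip. Each of the 24 libraries, 1 per mouse and zone, counts unique molecular identifiers (UMIs) at the 3-prime end of polyadenylated RNA. A zone is therefore a sort gate on surface protein and not a dissected length of villus.

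The lining of the small intestine is renewed from crypts, the pits where stem cells and their dividing daughters sit. Cells that leave the crypt stop dividing, move up the villus as enterocytes or secretory cells and are shed at the tip. A dividing cell first licenses its replication origins with the MCM helicase, makes nucleotides and copies its DNA in S phase, and then enters mitosis under cyclin B and CDK1, with a set of kinases and checkpoint proteins that pull the chromosomes apart. Many genes of the first group are known targets of E2F factors. Promoters of many in the second carry a cell cycle homology region (CHR) and CCAAT boxes.

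Library totals ran from 806541 to 2266261 UMIs around a median of 1502948.5. The levels below are CPM over the tested genes with TMM scaling. Markers of enterocytes summed to 16450 CPM in V1 and 83560 in V6, and 7 of the 8 markers rose with zone. All 7 goblet cell markers fell, from a sum of 72480 CPM (47400 to 94300 over mice) in V1 through 36590 in V2 to 11610 in V3 and 11370 in V6. Of the 9 stem and crypt markers 6 fell and 0 rose, and their sum went from 192.4 CPM (107 to 311) to 59.97 (47.9 to 70.6), while Lgr5 was at 13.94 CPM in V1 and 11.94 in V6. Paneth cell markers summed to between 8464 and 20320 CPM in the zone means and none of the 6 was called. The 13 leukocyte markers summed to 557.7 CPM in V1 and 1051 in V6. Cd74 alone, at 533.9 CPM in V1 and 906.5 in V6, made up most of both sums. Ptprc was at 0.4065 and 1.89 CPM and Cd3e at 0.5668 and 2.379, both too low to test. Of the 5 leukocyte markers tested, 4 rose and 0 fell. Gzma went from 9.002 CPM in V1 to 87.75 in V6, and Lcp1 from 5.95 to 5.916. Enteroendocrine markers summed to 2114 CPM at the bottom, 616.9 in V4 and 4241 at the tip, but they did not move together. Of the 6 tested, 1 fell and 4 rose, and Gip went from 1329 CPM in V1 to 130.5 in V6. Tuft cell markers summed to 16.62 CPM in V1 and 45.73 in V6, and of the 3 tested 2 rose and 0 fell. Stromal and endothelial markers summed to at most 10.71 CPM in any zone mean. In bulk samples such as these, fewer cells of a type and less RNA per cell cannot be told apart.

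The division and replication genes were highest at the villus bottom and declined toward the tip. Their summed level, over the 39 counted genes, was 1668 ± 457 CPM (SD, n = 4) in V1 and 765.8 ± 101 in V6. By mouse, V1 held 1692, 2304, 1308 and 1366 CPM in mice 1 to 4, and V6 held 718.4, 904.7, 669.8 and 770.2. Every V1 library lay above every V6 library in this sum. The RNA was still present at the tip: 4387 UMIs of these genes were counted over the 4 V6 libraries, against 11652 in V1.

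Of the 37 genes tested, 31 fell along the 6 zones and 0 rose (edgeR's quasi-likelihood test on the slope of log2 level per zone, Benjamini-Hochberg adjusted p under 0.05). Over all 9328 genes tested the same call was made downward for 22.8% and upward for 22.1%. At unadjusted p under 0.05 the members numbered 33 lower and 0 higher, and DESeq2 called 31 lower and 0 higher. No share over all genes is given for the counts at unadjusted p, here or below. The median slope was -0.228 log2 units per zone, beside -0.00465 over all genes tested, and the members ran from -0.356 in Mcm3 to -0.0809 in Gmnn. All 37 fitted slopes were below 0. With mouse as a block 34 fell, beside 27.8% of all genes: Ccnb1, Gmnn, Pcna and Tacc3 gained the call and Top2a lost it. Scaling by total UMIs, which moved the median of all genes between V1 and V6 by -0.339, gave 36 members lower and 0 higher, and turned the split over all genes from 2126 lower and 2063 higher to 3720 lower (39.9%) and 1217 higher (13.0%). The fits that left out a mouse or a library had no mouse block, and none was made with it. Without mouse 1, 12 members kept the call, and the falling slopes over all genes went from 2126 to 1279. It held for 11 members in each of the 28 fits that left out 1 mouse or 1 library (Mcm5, Dut, Ccnd2, Ccna2, Ccnb2, Cdk4, Cks1b, Birc5, Cdc20, Plk1 and Tubb5). Leaving out the V1 library of mouse 2 took it from 10 (Aurka, Aurkb, Hmgb1, Hmgb2, Mcm2, Mcm4, Rrm2, Stmn1, Tk1 and Top2a). That fit had 1769 falling slopes over all genes.

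Between the ends of the axis, V6 against V1, 29 of 37 were lower and 0 higher, beside 18.6% lower and 20.2% higher among all genes. DESeq2 called 30 lower and 0 higher, and at unadjusted p under 0.05 edgeR gave 32 lower and 0 higher. With mouse as a block 34 were lower, beside 24.7% of all genes. Under total UMI scaling the split over all genes went from 1737 lower and 1882 higher to 3102 (33.3%) and 1152 (12.3%), and that of the members to 36 lower and 0 higher. The median difference was -1.28 log2 units and the range ran from -2.01 in Mcm2 to -0.186 in Mki67. The V6 mean was between 24% and 89.1% of the V1 mean, with a median of 41.7%. In 22 of 37 genes each V1 library was above each V6 library, against 16.5% of all genes tested. V1 exceeded V6 within all 4 mice for 35 genes (28.4% of all genes) and within 3 mice for Gmnn and Mki67. The count of 29 became 11 without mouse 1, 13 without the V1 library of mouse 2 and 19 without the V6 library of mouse 3. Over all genes the count lower at the tip went from 1737 to 970, 1268 and 1335 in the same fits.

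**Figure D1:**
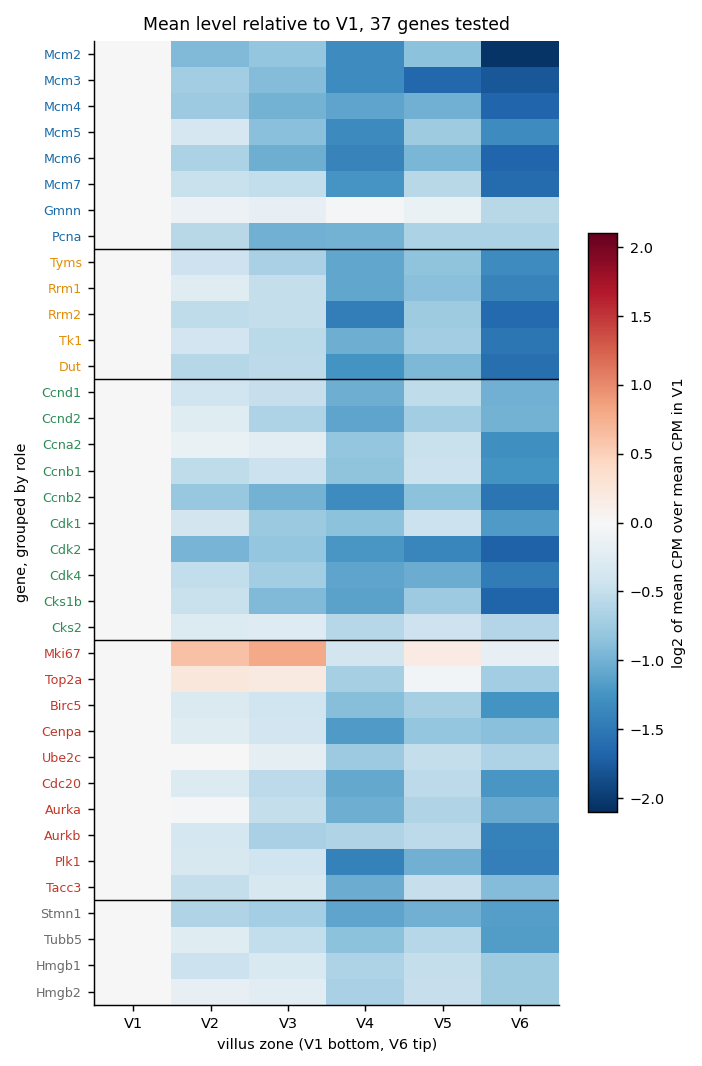
Mean level of each of the 37 tested genes in each zone (columns, V1 bottom to V6 tip) relative to its own V1 mean, as log2 of the ratio of mean CPM over 4 mice; rows are grouped by role and blue is below V1. Most rows turn bluer to the right, V4 is darker than V5 in most of them, and Mki67 and Top2a are above V1 in V2 and V3.

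Among the replication licensing and fork genes the helicase subunits declined together. Of the 8 tested, the 6 subunits Mcm2 to Mcm7, which form the ring helicase that is loaded at origins and unwinds DNA, all fell, while Gmnn, the inhibitor of origin licensing, and Pcna, the clamp that tethers polymerases to DNA, did not pass the test. The median slope of the 8 was -0.272. Their sum was 242.5 ± 110 CPM in V1, 117.7 in V4, 144.6 in V5 and 98.09 ± 12.6 in V6. Per mouse the sum was 244.5, 396.3, 149.7 and 179.6 CPM in V1 and 99.77, 113.4, 82.75 and 96.44 in V6, so the mice differed far more at the bottom than at the tip.

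Mcm6 (chr1:128331590-128359664, minus strand) was counted with 1277 UMIs over all libraries. Its levels in mice 1 to 4 were 66.4, 106, 30.9 and 37.5 CPM in V1, 40, 68.0, 21.2 and 23.2 in V2, and 43.7, 38.8, 18.9 and 16.6 in V3. Higher up they were 25.3, 33.3, 11.5 and 20.4 in V4, 22.1, 61.8, 14.1 and 25.6 in V5, and 16.4, 28.6, 15.6 and 15 in V6. Each mouse had its highest value in V1, and the lowest V1 value, of mouse 3, was above the highest V6 value, of mouse 2. The slope was -0.285 ± 0.0811 log2 units per zone (SE; edgeR adjusted p = 0.00711), and the adjusted p was 0.0872 without mouse 1.

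Mcm3 (chr1:20802968-20820312, minus strand), another subunit of the ring, stood at 16.3, 40, 7.42 and 11.3 CPM in V1 and at 2.43, 10.1, 4.24 and 5.21 in V6. The groups overlapped, since mouse 2 in V6 exceeded mouse 3 in V1, although V1 was higher within each mouse. Its slope of -0.36 ± 0.0957 (adjusted p = 0.00442) was the steepest of the 37, with an adjusted p of 0.0651 without mouse 1. Mcm7 (chr5:138164583-138172422, minus strand) went from 33.7, 61.8, 19.2 and 23.2 CPM to 10.3, 6.72, 14.9 and 13.0, with no overlap and a slope of -0.27 ± 0.0703 (adjusted p = 0.00393; 0.0605 without mouse 1). Mcm5 (chr8:75109569-75128439, plus strand) went from 18.4, 29.7, 19.2 and 18.4 CPM to 6.69, 9.24, 9.19 and 9.12, also without overlap, at -0.24 ± 0.0667 (adjusted p = 0.00526). Mcm2 and Mcm4 fell at adjusted p of 0.0276 and 0.014. Those calls were lost in 5 and 1 of the 24 fits without a single library, where the highest adjusted p were 0.085 and 0.0552. Mcm7 is 1 of 17 tested members, 10 of them with a protein-coding partner, that another annotated gene overlaps, and whether the counting used strand is not given in the sources used here.

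Gmnn (chr13:24751845-24761923, minus strand) codes for geminin, which blocks the loading of the helicase. Its V1 levels were 31.1, 36.0, 26.0 and 23.8 CPM, its V4 levels 30.6, 34.1, 17.2 and 31.3, and its V6 levels 23.7, 14.3, 15.6 and 24.1. The tip was below the bottom in 3 of 4 mice, while V4 lay within or close to the range of V1 except in mouse 3. The slope was -0.0809 ± 0.0359 (adjusted p = 0.0693; 0.038 with the mouse block), and V6 was below V1 by the test of the ends (-0.58 ± 0.214, adjusted p = 0.0352). Pcna (chr2:132249162-132253314, minus strand) was at 37.4, 50.9, 25.4 and 33.9 CPM in V1, 23.9, 22.8, 16.5 and 10.3 in V3, and 20.7, 32.8, 17.0 and 22.8 in V6. It was the one gene with its lowest mean in V3, and its V6 level was 63.2% of V1. Its slope was -0.11 ± 0.0588 (adjusted p = 0.143; 0.00974 with the block). The annotation names 2 Pcna pseudogenes, between which and the gene reads could be split.

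Promoters are shown for 2 helicase subunits, since these genes declined together. The sequences are RefSeq's, on GRCm38.p6, and run from 250 bases before to 50 after the annotated start, 5′ to 3′ on the gene's strand. RefSeq gave such a window for 33 of the 40 genes (35 promoters), Cdt1 among them. Capitals mark 3 motifs searched on both strands with overlaps allowed: TTTGAA (the CHR core), CCAAT, and TTCCCGC or TTGGCGC (E2F forms). The Mcm5 window is chr8:75109259-75109558 on the plus strand and the Mcm6 window is chr1:128359656-128359955 on the minus strand; each holds 2 E2F matches, and they hold 3 and 2 CCAAT matches and no CHR match.
Mcm5: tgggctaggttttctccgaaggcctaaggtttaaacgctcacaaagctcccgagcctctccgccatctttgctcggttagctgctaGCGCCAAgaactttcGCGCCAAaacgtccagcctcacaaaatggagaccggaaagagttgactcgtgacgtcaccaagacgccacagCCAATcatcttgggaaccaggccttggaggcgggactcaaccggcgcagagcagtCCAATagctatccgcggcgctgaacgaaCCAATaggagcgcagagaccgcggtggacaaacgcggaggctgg
Mcm6: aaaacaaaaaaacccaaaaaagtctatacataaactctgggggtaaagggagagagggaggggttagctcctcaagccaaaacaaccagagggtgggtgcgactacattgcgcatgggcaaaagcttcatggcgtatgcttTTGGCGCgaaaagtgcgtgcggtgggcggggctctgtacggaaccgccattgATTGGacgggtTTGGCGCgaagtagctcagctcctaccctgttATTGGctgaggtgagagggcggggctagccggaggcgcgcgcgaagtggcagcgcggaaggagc
An E2F form was present in 6 of 8 promoters of licensing and fork genes (75.0%), against 6.81% of 32851 RefSeq promoters of the same length and 12.0% of those of the genes tested. These 8 promoters belong to 7 genes and are not the 8 genes tested. Mcm7 has windows at 2 starts, each with an E2F form, and Cdt1, whose level was not analysed, also holds one. Mcm4 and Gmnn have no window. CCAAT was present in 7 of the 8 (87.5%, against 37.4% of all promoters). A match to these letters is a description and not a shown binding site.

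The nucleotide supply genes all fell, 5 of 5, with a median slope of -0.281. Their sum was 157.7 ± 61.3 CPM in V1 and 57 ± 11.6 in V6. Dut (chr2:125247190-125258608, plus strand), the dUTPase that keeps uracil out of DNA, was at 39.0, 41.7, 16.7 and 28.5 CPM in V1 and 10.3, 8.40, 9.19 and 14.3 in V6. No V6 value reached the V1 range, and the slope was -0.28 ± 0.0652 (adjusted p = 0.00133). Rrm1 (chr7:102441695-102469771, plus strand), the large subunit of ribonucleotide reductase, had 30.6, 45.7, 21.0 and 17.8 CPM in V1 and 6.69, 14.3, 12.7 and 9.77 in V6, again without overlap, at -0.28 ± 0.0737 (adjusted p = 0.00366; 0.0693 without mouse 1).

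Tyms (chr5:30058202-30073617, minus strand), the thymidylate synthase, went from 40.1, 59.5, 43.9 and 32.1 CPM to 17.6, 16, 16.3 and 20.2. The V6 values were the tightest of the class, at 17.52 ± 1.93 CPM, and the slope was -0.24 ± 0.0707 (adjusted p = 0.00783; 0.073 without mouse 1). Tk1 (chr11:117815526-117826092, minus strand), the thymidine kinase of the salvage route, went from 31.1, 45.7, 16.7 and 23.2 CPM to 9.73, 18.5, 4.24 and 8.47, so that mouse 2 in V6 was above mouse 3 in V1, at -0.27 ± 0.0896 (adjusted p = 0.0187; 0.14 without mouse 1). Rrm2, the small reductase subunit, had a slope of -0.29 ± 0.117 (adjusted p = 0.0464), and this call was lost in 13 of the 24 fits without a single library, with adjusted p up to 0.173. The Rrm2 levels in V1 were 22.1, 49.8, 11.8 and 13.7 CPM, of which that of mouse 2 was the highest.

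**Figure D2:**
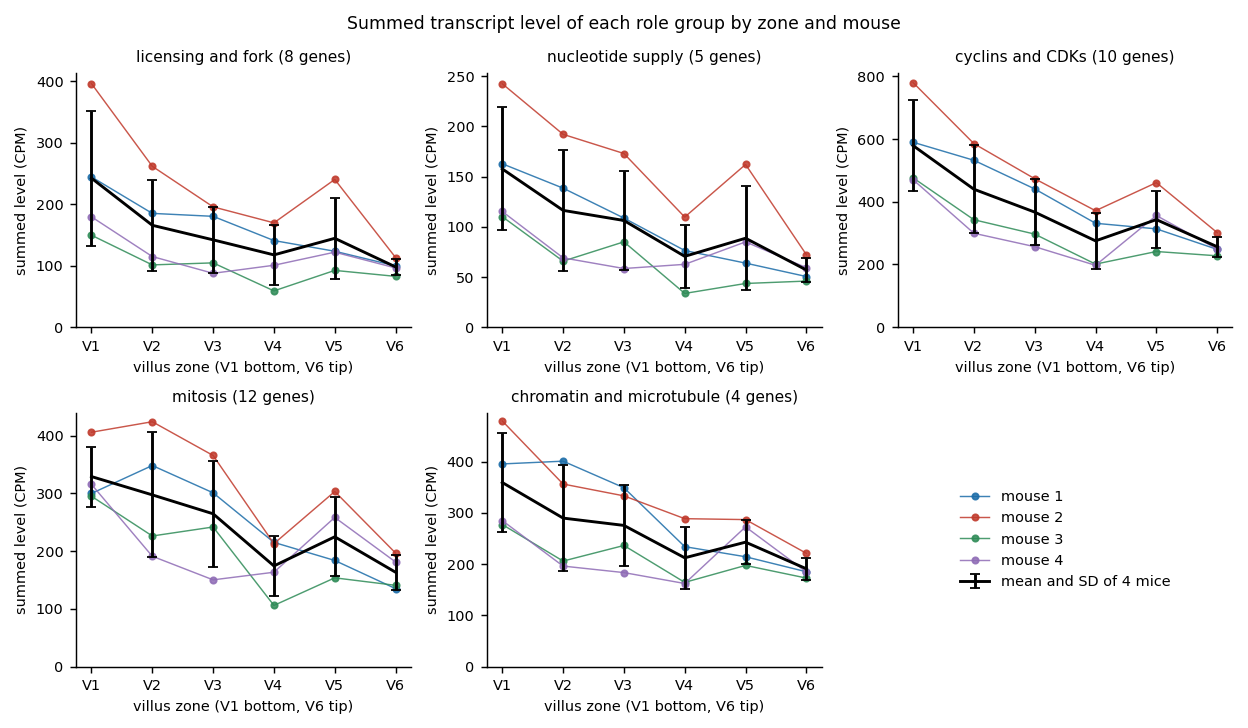
Summed CPM of the counted genes of each role in each zone, 1 thin line per mouse and the mean with SD of 4 mice in black; V1 is the villus bottom and each axis starts at 0. Every role has a lower mean in V6 than in V1, the lines of mice 1 and 2 lie above those of mice 3 and 4 in V1 except in the mitosis panel, and the means dip in V4 and are higher in V5.

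Among the cyclins, cyclin-dependent kinases and their subunits, 8 of 10 fell, with a median slope of -0.214, and the sum was 579.1 ± 145 CPM in V1 and 256.6 ± 31.5 in V6. Cdk4 (chr10:127063534-127067920, plus strand), the kinase that cyclin D activates in G1, was counted with 2695 UMIs. It was at 128, 172, 82.9 and 85.6 CPM in V1, 95.4, 119, 59.0 and 52.4 in V2, and 80.6, 96.7, 55.1 and 49.0 in V3. In the upper zones it was at 51.7, 91.0, 25.5 and 49.0 in V4, 54.1, 80.5, 39.5 and 51.9 in V5, and 38.9, 52.9, 31.8 and 45.0 in V6. V1 was the highest zone in each mouse and no V6 value reached 82.9. The slope was -0.27 ± 0.0565 (adjusted p = 0.000595), the smallest adjusted p of the 37. An annotated gene on the opposite strand, Tspan31, overlaps it.

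Ccnd2 (chr6:127125162-127152193, minus strand), a D-type cyclin, was at 244, 344, 226 and 190 CPM in V1 and 135, 132, 130 and 110 in V6, with no overlap and a slope of -0.19 ± 0.0418 (adjusted p = 0.000662). Its lowest mean was in V4, at 116.5 CPM. Cks1b (chr3:89415472-89418383, minus strand), a small subunit that binds the kinases, went from 18.4, 30.9, 22.9 and 21.4 CPM to 4.87, 9.24, 7.78 and 7.17, at -0.28 ± 0.0652 (adjusted p = 0.00132). Ccnb2 (chr9:70407692-70421547, minus strand), a B-type cyclin of mitotic entry, went from 48.5, 51.5, 28.5 and 46.4 CPM to 16.4, 23.5, 8.49 and 11.7, at -0.24 ± 0.0571 (adjusted p = 0.00164). In all 3 of these genes the lowest bottom library was above the highest tip library.

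Ccnd1, Ccna2, Cdk1 and Cdk2 also fell, at slopes from -0.30 (Cdk2) to -0.17 (Ccnd1). Without mouse 1 the adjusted p were 0.153 for Ccnd1, 0.0958 for Cdk1 and 0.0643 for Cdk2. The 2 members that missed the test were Ccnb1 and Cks2. Ccnb1 (chr13:100778650-100786570, minus strand), the other B-type cyclin, was at 33.7, 38.3, 26.6 and 13.7 CPM in V1 and 9.73, 22.7, 5.66 and 9.12 in V6; mouse 2 in V6 was above mouse 4 in V1. Its slope was -0.19 ± 0.0831 (adjusted p = 0.0627; 0.00133 with the block), while V6 against V1 passed (-1.28 ± 0.496, adjusted p = 0.0437). Cks2 (chr13:51645232-51650660, plus strand), the paralogue of Cks1b, was at 14.8, 10.3, 8.04 and 11.9 CPM in V1 and 7.30, 9.24, 4.24 and 8.47 in V6, with overlapping groups and a slope of -0.12 ± 0.0608 (adjusted p = 0.126).

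The Ccnb2 promoter, chr9:70421505-70421804 on the minus strand, is shown because this gene fell in each left-out fit and its window carries the other pair of motifs. It holds 2 CHR and 3 CCAAT matches and no E2F match, in the capitals defined above.
Ccnb2: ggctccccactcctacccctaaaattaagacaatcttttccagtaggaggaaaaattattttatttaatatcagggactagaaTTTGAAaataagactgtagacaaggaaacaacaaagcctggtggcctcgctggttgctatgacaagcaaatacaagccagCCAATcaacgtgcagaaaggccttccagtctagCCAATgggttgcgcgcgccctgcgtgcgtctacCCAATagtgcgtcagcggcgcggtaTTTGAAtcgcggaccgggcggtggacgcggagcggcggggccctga
Over the 7 promoters of this role that were matched, CHR was present in 3 (42.9%, against 17.9% of all promoters), CCAAT in 6 and an E2F form in 3. Ccnd1, Ccnd2 and Ccna2 have no window.

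The mitosis genes were the only role whose tested genes did not all have their highest mean in V1: Top2a and Ube2c had it in V2 and Mki67 in V3. Of the 10 tested 8 fell and 0 rose, with a median slope of -0.208, and 5 of 10 were lower in V6 than in V1 by the test of the ends. The sum over 12 genes was 329.2 ± 52 CPM in V1 and 163.4 ± 30.2 in V6. By mouse the V1 sums were 299.9, 406, 295.1 and 315.7 CPM and the V2 sums 348.3, 424.2, 226.2 and 191.1. Mice 1 and 2 were thus highest in V2 and mice 3 and 4 in V1.

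Birc5 (chr11:117849251-117855743, plus strand), survivin, a subunit of the chromosomal passenger complex, was at 81.7, 106, 82.3 and 63.0 CPM in V1, 71.2, 99.5, 53.0 and 47.0 in V2, and 66.0, 91.1, 54.3 and 38.7 in V3. In the upper zones it was at 52.9, 57.7, 23.0 and 46.3 in V4, 41.2, 73.9, 38.9 and 52.6 in V5, and 29.2, 37.8, 28.3 and 43.7 in V6. It was highest in V1 in all 4 mice, the ends did not overlap, and the slope was -0.23 ± 0.0488 (adjusted p = 0.000607). Plk1 (chr7:122159439-122169873, plus strand), a kinase of mitotic entry and spindle assembly, went from 13.2, 23.4, 10.5 and 8.32 CPM to 2.43, 9.24, 3.54 and 5.21, with mouse 2 in V6 above mouse 4 in V1 and a slope of -0.30 ± 0.0754 (adjusted p = 0.0025).

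Cdc20 (chr4:118432901-118437352, minus strand) activates the anaphase-promoting complex, which starts chromosome separation. It went from 50.6, 66.3, 48.3 and 55.9 CPM in V1 to 23.7, 30.2, 17.0 and 24.1 in V6, without overlap, at -0.21 ± 0.0557 (adjusted p = 0.00339). Ube2c (chr2:164769898-164778822, plus strand), the ubiquitin-conjugating enzyme of that complex, was at 30.0, 56, 43.3 and 48.8 CPM in V1, 62.5, 40.6, 38.6 and 38.3 in V2, and 28, 31.1, 23.3 and 30.6 in V6. Mouse 1 had its highest value in V2 and the others theirs in V1, and the slope was -0.16 ± 0.0462 (adjusted p = 0.00861; 0.0588 without mouse 3). Aurka, Aurkb and Cenpa fell as well, at slopes from -0.23 to -0.20; without mouse 1 their adjusted p were 0.097, 0.173 and 0.112.

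The Cdc20 promoter, chr4:118437294-118437593 on the minus strand, stands for this role because it carries the motif pair that most of its promoters share. It holds 1 CHR and 2 CCAAT matches and no E2F match.
Cdc20: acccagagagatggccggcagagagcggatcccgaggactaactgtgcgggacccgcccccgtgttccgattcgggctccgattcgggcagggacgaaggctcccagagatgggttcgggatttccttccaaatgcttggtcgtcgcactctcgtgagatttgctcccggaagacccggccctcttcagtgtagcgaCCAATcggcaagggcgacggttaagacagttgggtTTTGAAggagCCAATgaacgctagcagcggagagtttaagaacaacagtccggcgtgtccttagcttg
CHR was present in 8 of 11 promoters of mitosis genes (72.7%), against 17.9% of all promoters and 11.9% of those of the genes tested, and all 8 also held CCAAT. An E2F form was present in 1 of the 11. Over all 35 promoters of the members the counts were 13 with CHR (37.1%), 27 with CCAAT (77.1%) and 11 with an E2F form (31.4%).

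Mki67 (chr7:135689784-135716361, minus strand) codes for Ki-67, the protein whose antibody staining marks cycling cells, and had 280 UMIs in all. Its levels were 6.85, 5.72, 6.80 and 5.35 CPM in V1, 15, 13.1, 3.78 and 5.94 in V2, and 17.7, 11.1, 7.87 and 6.32 in V3. Above these it had 7.05, 7.31, 3.28 and 1.36 in V4, 4.63, 12.1, 3.53 and 7.42 in V5, and 1.82, 5.04, 10.6 and 4.56 in V6. Each mouse had a higher value in V3 than in V1, and mouse 3 had its highest at the tip. The slope was -0.11 ± 0.0852 (adjusted p = 0.313), the V2 against V1 step 0.65 ± 0.464 (adjusted p = 0.536), and the V6 against V1 difference -0.19 ± 0.512 (adjusted p = 0.798), so no direction was shown for this gene at this depth.

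Top2a (chr11:98992943-99024189, minus strand), the topoisomerase that untangles replicated chromosomes, was at 18.4, 24.6, 34.6 and 41.6 CPM in V1, 46.6, 54.9, 20.4 and 18.9 in V2, and 42.6, 18.5, 45.7 and 28.4 in V3. In V4 it was at 27.6, 17.1, 16.4 and 12.3, in V5 at 20.1, 33.1, 18.8 and 43.2, and in V6 at 12.2, 15.1, 24 and 20.2. Mice 1 and 2 had more in V2 than in V1, and mice 3 and 4 had less. The slope was -0.16 ± 0.0637 (adjusted p = 0.0494), a call that the mouse block did not keep (adjusted p = 0.0876) and that was lost in 16 of 24 fits without a single library (adjusted p up to 0.128). Tacc3 (chr5:33658128-33678995, plus strand), a spindle microtubule protein, was at 19.5, 23.4, 8.66 and 22.0 CPM in V1 and 7.91, 11.8, 7.07 and 12.4 in V6, with overlap at mouse 3, and its slope was -0.15 ± 0.0757 (adjusted p = 0.105; 0.0299 with the block). Of the untested genes, Bub1, a checkpoint kinase, had 18 UMIs in V1 and 7 in V6 over the 4 libraries of each zone. Kif11, a spindle motor, had 34 and 10.

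**Figure D3:**
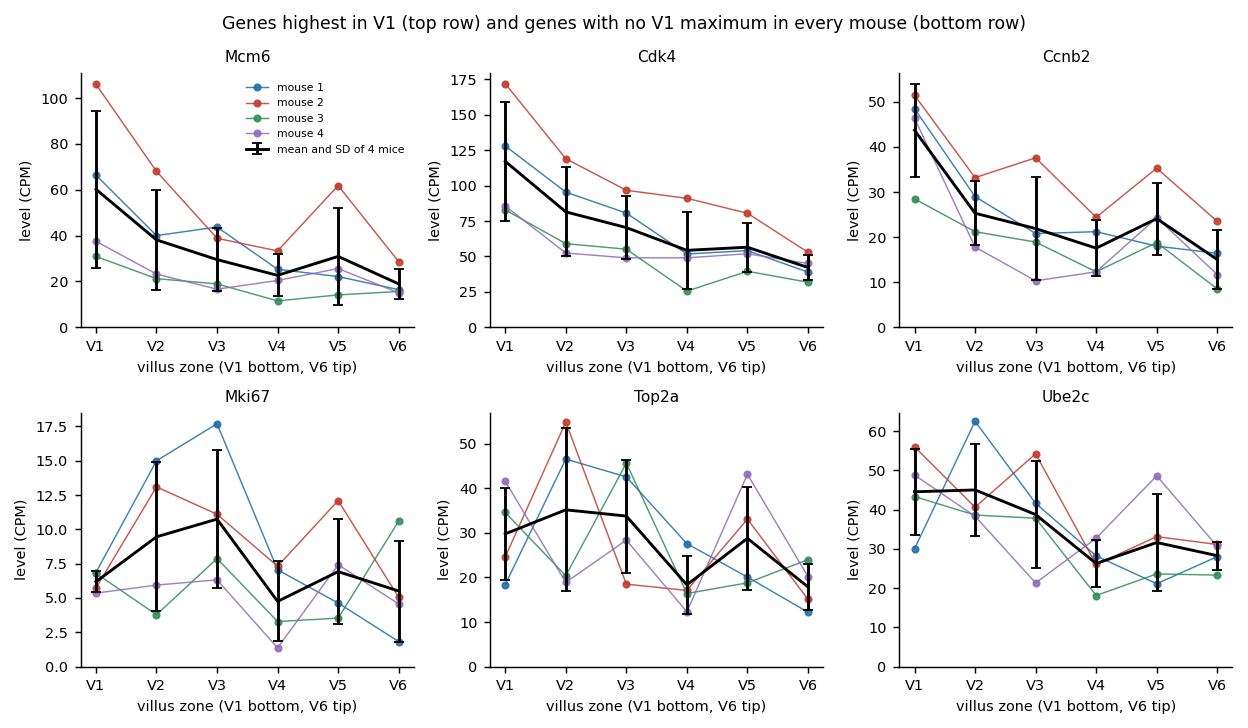
CPM by zone for Mcm6, Cdk4 and Ccnb2 (top row) and Mki67, Top2a and Ube2c (bottom row), 1 thin line per mouse with the mean and SD of 4 mice in black, each axis from 0. The top genes have V1 as the highest zone in every mouse; in the bottom row mouse 1 peaks in V2 or V3, at 17.7 CPM for Mki67 and 62.5 for Ube2c.

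The chromatin and microtubule genes all fell, 4 of 4, with a median slope of -0.178, and the sum was 359.1 ± 96.6 CPM in V1 and 190.7 ± 20.9 in V6. Tubb5 (chr17:35833921-35838306, minus strand), a beta-tubulin, went from 123, 180, 103 and 106 CPM in V1 to 57.2, 52.1, 55.9 and 62.6 in V6, without overlap, at -0.21 ± 0.0495 (adjusted p = 0.00165). Stmn1 (chr4:134468320-134473843, plus strand), stathmin, which destabilises microtubules, went from 30.6, 36.6, 19.8 and 14.3 CPM to 12.8, 14.3, 7.07 and 11.1, at -0.22 ± 0.0733 (adjusted p = 0.0179; 0.0551 without the V1 library of mouse 2 and 0.131 without mouse 1). The highest tip library and the lowest bottom library of Stmn1 were both at 14.3 CPM.

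The high mobility group genes code for DNA-bending chromatin proteins that resting cells also make. Hmgb2 (chr8:57511907-57515999, plus strand) was at 96.4, 130, 84.8 and 91.6 CPM in V1 and 55.4, 82.3, 49.5 and 53.4 in V6, at -0.15 ± 0.0497 (adjusted p = 0.0191). Its adjusted p was 0.0566 without the V1 library of mouse 2 and 0.13 without mouse 1, and the call was also lost without mouse 3. Hmgb1 (chr5:149046702-149184489, minus strand) was at 145, 133, 69.9 and 72.5 CPM and at 59.6, 72.2, 60.1 and 57.3, at -0.12 ± 0.0483 (adjusted p = 0.0439). The Hmgb1 call was lost in 13 of 24 fits without a single library (adjusted p up to 0.137), and its adjusted p was 0.367 without mouse 1. The annotation names 10 Hmgb1 pseudogenes that could take or lend reads.

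**Figure D4:**
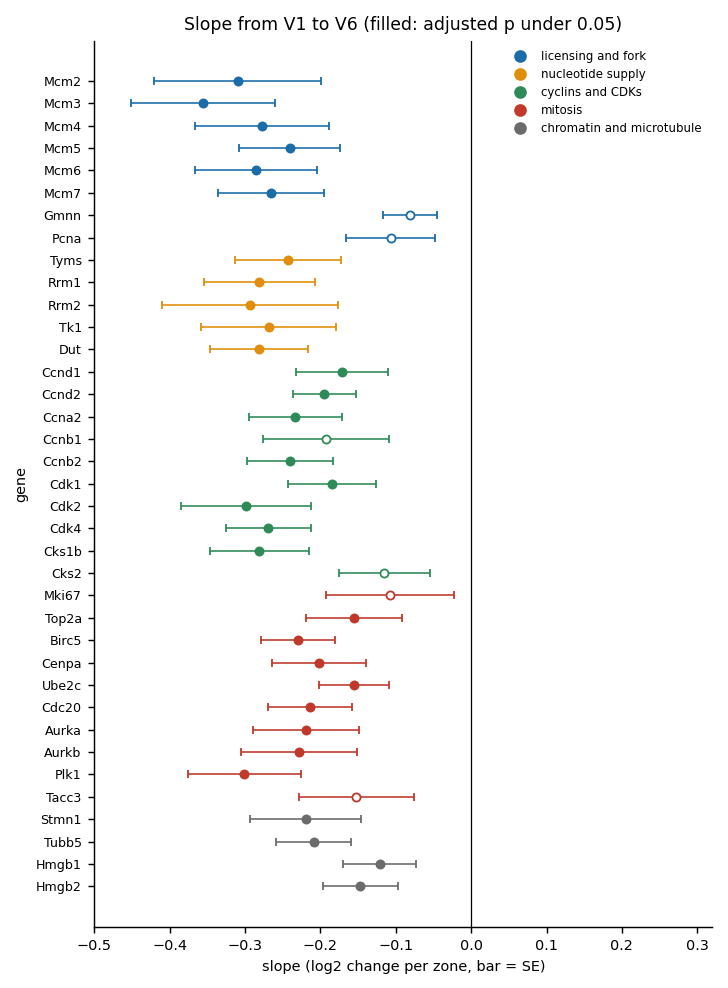
Slope of log2 level per zone from V1 to V6 for each of the 37 tested genes, coloured by role, with bars for the standard error; filled points passed the test and open points did not. All points lie left of 0, from -0.356 for Mcm3 to -0.0809 for Gmnn, and 6 are open.

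Along the axis the decline was spread over several zones. Taken as a median over the 37 genes, the level stood at 76.1% of V1 in V2, 69.9% in V3, 47.7% in V4, 62.0% in V5 and 41.7% in V6. V1 was the highest zone for 34 genes (36.2% of all genes tested), V2 for Top2a and Ube2c and V3 for Mki67. V6 was the lowest zone for 29 and V4 for 7 (19.8% of all genes for each). The V5 mean was above the V4 mean in 34 of 37, against 48.8% of all genes.

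No single step passed the test for any member without the block. For V2 against V1, edgeR called 0 of 37 (0.0858% of all genes were called lower), with 2 lower at unadjusted p under 0.05 and 0 by DESeq2. With mouse as a block, 7 were lower in V2 (Mcm2, Mcm6, Pcna, Ccnb2, Cdk2, Cdk4 and Stmn1), beside 5.72% of all genes; their differences ran from -1.0 for Mcm2 and Cdk2 to -0.52 for Cdk4. For the steps V3 against V2, V4 against V3, V5 against V4 and V6 against V5, edgeR called 0 members with or without the block, as did DESeq2. At unadjusted p under 0.05 without the block 0, 2, 0 and 3 members were lower and 0 higher. Those unadjusted counts have no share over all genes beside them and are not read as a result about the members. At adjusted p under 0.05 these steps were called lower over all genes for 0.118%, 0.0%, 0.0% and 0.0% without the block and for 1.79%, 0.193%, 0.0% and 0.0322% with it. The V5 against V4 step was called for no gene of the table in either direction, so it says nothing of the members in particular. The summed level of the members was higher in V5 than in V4 in 3 of 4 mice (1453 against 1152, 728.4 against 564.1 and 1094 against 686.2 CPM in mice 2 to 4) and lower in mouse 1 (899.1 against 997.8).

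Above the lowest zone the decline was tested on V2 to V6 and on V3 to V6. Over V2 to V6, Ccna2, Cdk4 and Birc5 fell (3 of 37, 3.31% of all genes), at adjusted p of 0.0366, 0.0499 and 0.024. With the block 23 of 37 fell (13.1% of all genes), including all 5 nucleotide supply genes, and the median slope was -0.195. Over V3 to V6, 0 were called (0.0214% of all genes; 4 lower at unadjusted p under 0.05, 0 by DESeq2), and 36 of 37 fitted slopes were negative. With the block Cdk4 (adjusted p = 0.00911) and Birc5 (adjusted p = 0.0204) fell there (2 of 37, 0.6% of all genes). Curvature was called for 0 members by edgeR and DESeq2 (1 at unadjusted p under 0.05). Over all genes 2.86% were called with an upward bend, which a decline that flattens, a rise that steepens or a dip can each give. With the block Pcna and Ccnd2 bent upward (9.55% of all genes).

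The mice differed in level. Mouse 2 had the highest mean over zones in 33 of the 37 genes, and the same count was not made over all genes. The ratio of the mean of mice 1 and 2 to that of mice 3 and 4 had a median of 1.98 for licensing and fork genes, 1.71 for nucleotide supply, 1.56 for cyclins and CDKs, 1.6 for mitosis and 1.46 for chromatin and microtubule genes, while over all genes tested the median was 1.00 and 10.2% of genes were at 1.5 or more. The decline was present within each mouse: the V6 sum over all members was 42.5%, 39.3%, 51.2% and 56.4% of the V1 sum in mice 1 to 4, and the lowest zone was V6 in mice 1 and 2 and V4 in mice 3 and 4. The index deposited with each library, read here as a pool label, gives 1 pool to all of mouse 1 and the V1 library of mouse 2, another to the other 5 libraries of mouse 2, and 1 each to mice 3 and 4. Mouse and pool can therefore hardly be told apart, the ratios of mice 1, 3 and 4 are within a pool, and that of mouse 2 is across 2 pools.

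Other cell cycle genes were read from 5 lists of the same pathway. Over all genes tested the slope was called lower for 22.8% and higher for 22.1%, with the mouse block for 27.8% and 27.6%, and with total UMI scaling for 39.9% and 13.0%; the counts of each list stand beside these shares. Of 20 tested genes of a wider S phase list (32 listed), 13 fell and 0 rose; with the block 15 fell and 1 rose, Ccne2, a cyclin of S phase entry (slope 0.22, adjusted p = 0.00433; 0.0513 without the block). Those with the smallest adjusted p were Rfc2, a subunit of the clamp loader (59.43 ± 15.1 CPM in V1, 32.41 ± 1.95 in V6, adjusted p = 0.00116), Tipin, of the fork protection complex (0.00445), Cdca7, which is also 1 of the crypt markers (0.00482), and Chaf1b, of a histone chaperone (0.0101). Of 27 tested origin and fork genes (33 listed), 15 fell and 0 rose, and with the block 17 and 0. They were led by Orc5, an origin recognition subunit (195.1 ± 30 to 106.1 ± 22.3 CPM, adjusted p = 0.00033), the RNase H2 subunits Rnaseh2a (0.000459) and Rnaseh2b (0.00128), and Gins1, of the active helicase (0.00074).

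A wider G2 and M phase list held 40 symbols, in which Fam64a and Pimreg name the same gene, as do Hn1 and Jpt1. Of its 26 tested genes, 10 fell and 1 rose. Total UMI scaling gave 17 and 1, and the block gave 15 and 3, with Tubb4b (slope 0.083, adjusted p = 0.0018) and Hn1 (slope 0.049, adjusted p = 0.0239) added to the higher ones. Cdca3 (45.91 ± 9.89 to 20.15 ± 5.49 CPM, adjusted p = 0.00194), Lbr, a nuclear envelope protein (adjusted p = 0.00203), and Anp32e, a histone chaperone (adjusted p = 0.00285), were lower toward the tip. Gas2l3, which links actin and microtubules, rose from 0.584 ± 0.507 CPM in V1 to 11.09 ± 10.5 in V6, on 157 UMIs in all (slope 0.79 ± 0.138, adjusted p = 7.74e-05).

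Of 17 tested brakes of the cycle (19 listed), 8 rose and 0 fell, with a median slope of 0.11. The other 9 did not pass, and 4 of the 17 fitted slopes were below 0. The block gave 11 higher and 0 lower; total UMI scaling gave 5 higher and 1 lower, and Ccng2, Mxi1, Mxd1, Btg2 and Cdkn1a were the 5 higher ones. Ccng2, an atypical cyclin tied to arrest, was at 24.56 ± 6.35 CPM in V1 and 139.5 ± 44.6 in V6 (slope 0.49 ± 0.0396, adjusted p = 1.17e-09). Mxi1 and Mxd1, which compete with Myc for its partner Max, went from 36.62 ± 6.97 to 111.2 ± 11.7 CPM (adjusted p = 1.68e-09) and from 245.1 ± 52 to 826.2 ± 90.6 (adjusted p = 4.08e-08). Btg2, an antiproliferative gene, went from 23.46 ± 6.59 to 105 ± 59.5 CPM (adjusted p = 1.03e-05). Cdkn1a, the CDK inhibitor p21, chosen here after its values were seen, went from 217.7 ± 53.7 to 504.7 ± 114 CPM (adjusted p = 1.64e-05).

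In the cyclin D/E and E2F list, 6 of 16 tested genes (24 listed) fell and 2 rose. Total UMI scaling gave 12 and 1, and the block 10 and 2, with Ccnd3, Ccnh, E2f2 and E2f4 added to the lower ones. Cdc25b, a phosphatase that activates CDKs (12.03 ± 1.72 to 3.409 ± 1.56 CPM, adjusted p = 0.000458), and Cdk6, the paralogue of Cdk4 (adjusted p = 0.00191), were the lower ones with the smallest adjusted p. The 2 that rose were E2f3 (4.577 ± 2.66 to 13.64 ± 1.61 CPM, adjusted p = 0.000417) and Tfdp2, an E2F partner (17.94 ± 2.3 to 35.23 ± 6.47, adjusted p = 0.00321), while E2f1 fell (5.654 ± 1.14 to 1.252 ± 0.457, adjusted p = 0.00884) and was, like Myc, chosen here after its values were seen. Myc went from 38.74 ± 28.3 to 9.672 ± 3.13 CPM (adjusted p = 0.0101).

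**Figure D5:**
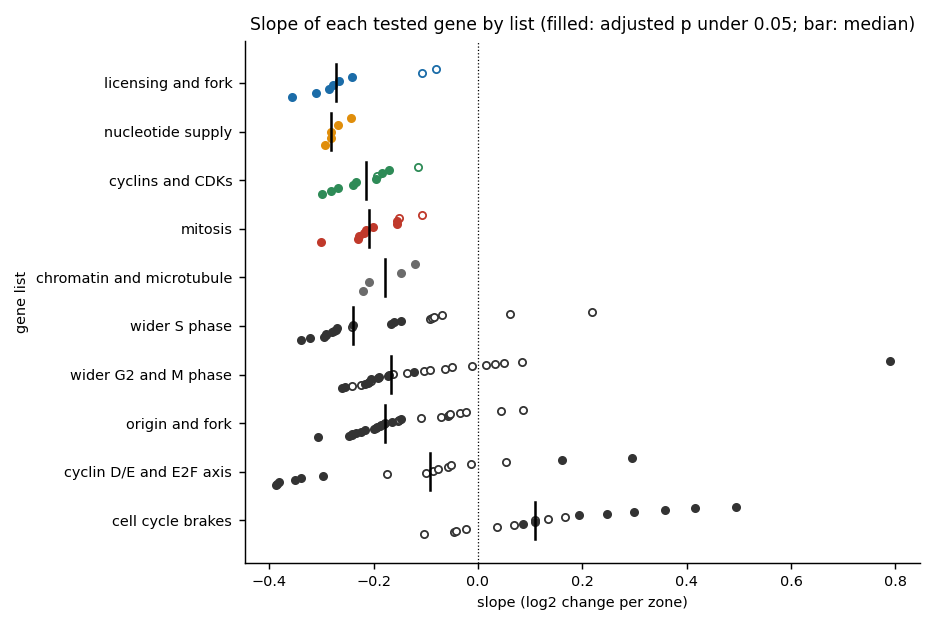
Slope of log2 level per zone of every tested gene in the 5 roles (coloured) and the 5 other cell cycle lists (black), with a vertical bar at each list's median; filled points passed the test. The medians of the first 9 lists lie below 0, from -0.281 for nucleotide supply to -0.0924 for the cyclin D/E and E2F list, that of the brakes is at 0.11, and Gas2l3 stands far right at 0.79.

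Goblet markers, whose sums are given above, declined over V1 to V3, so the members were also fitted with a goblet score as a covariate beside the mouse block. Zone and mouse together explained 93.8% of that score, which leaves little of it to separate from zone. In that fit 36 of 37 slopes were negative with a median of -0.305, and 2 were called, Mcm6 (adjusted p = 0.0267) and Cdk4 (adjusted p = 0.0226), beside 1.33% of all genes called lower. Over V3 to V6, where the goblet sum was between 11350 and 11610 CPM in the zone means, the median slope of the members was -0.179. Of the 37 members, 0 were called lower over V3 to V6 (0.0214% of all genes), and 2 with the block (0.6%). The share of all genes with a negative slope is not given here for either fit. The part of goblet cells, and of the stem and crypt markers that declined with the members, in these results was not tested.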

How the data were processed

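A single table of raw UMI counts, 1 column per library and 1 row per gene, was what the authors deposited. The submitters' processing notes name bcl2fastq 2.15.0.4 and GRCm38; the sources used here do not state the aligner, annotation or filters. edgeR 4.0.16 in R 4.3.3 was run on the counts with filterByExpr by zone (minimum count 10, minimum total 15), TMM scaling and quasi-likelihood fits of 6 zone means to the 24 libraries (18 residual degrees of freedom; 15 with mouse as a block). Contrasts were the slope per zone over 6 equally spaced zones, V6 minus V1, neighbouring steps, the quadratic curvature, and the slope over V3 to V6. The threshold was 0.05 on p adjusted by Benjamini-Hochberg over the 9328 genes tested, per contrast. CPM summaries and promoter counts were computed with numpy 2.4.6 and pandas 2.3.3, plots with matplotlib 3.10.9, and coordinates are GENCODE M21's on GRCm38. The fit was tested on simulated data drawn without a mouse effect, so that run does not cover the pairing by mouse. Its outcome is not given here.

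The mouse number of the labels pairs libraries, since the 6 zones of a number come from 1 animal. Deviations from zone means correlated in 60 of 60 same-mouse pairs above 0.1 (mean r 0.422, lowest 0.184). None of the 36 same-zone pairs looked like a copy, with a chi-square per degree of freedom of at least 3.52. Alternatives were the block, a goblet marker score with the block, RLE and total UMI scaling, all counted genes in place of the filter, only genes averaging 50 CPM or more, thinning to 806541 UMIs, V2 to V6, DESeq2 1.42.0, limma-voom (limma 3.58.1), and leaving out each mouse or library. The left-out fits had no mouse block.

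The members, roles, other lists and markers were chosen with earlier results of these data known. Full statistics go to the members of each role with the smallest adjusted p for the slope, at most 4, and to those not called or against their role. Of each other list, the same number with the smallest adjusted p is named, with any call against most of its list.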

Additional observations from a re-analysis of the deposited data

Results flagged for a closer look

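In 13 of 222 sets of 4 libraries (1 tested gene in 1 zone), 1 mouse stood apart from the other 3 by a gap that, over the range of the 4, exceeds Dixon's critical value. That is 5.86% of the sets, and chance flags about 1 in 20. Of the 13, 9 were in mouse 2.

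In V5, mouse 2 was high for Mcm2 (32 CPM, the others 6.07 to 9.27), Mcm4 (17.6, the others 4.63 to 4.72), Tyms (48.5, the others 13.0 to 18.2), Rrm2 (30.9, the others 8.09 to 10.0) and Cenpa (38.6, the others 18.3 to 21.1). The same mouse was high in V1 for Mcm5 (29.7, the others 18.4 to 19.2) and Ccna2 (28, the others 14.2 to 16.1), in V2 for Rrm2 (38.9, the others 7.56 to 11.4), and in V6 for Mcm6 (28.6, the others 15 to 16.4). Mouse 1 was high in V2 for Ube2c (62.5, the others 38.3 to 40.6) and in V6 for Mcm2 (11.6, the others 4.20 to 4.56), and low in V6 for Mcm5 (6.69, the others 9.12 to 9.24). Mouse 3 was low in V4 for Rrm1 (7.39, the others 15 to 16.5).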

How the results depend on the processing

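Of 1375 slopes of single members under an alternative, 1187 kept their direction and side of the threshold, 164 lost the call, 22 gained it and 2 reversed: Gmnn at 0.0111 (adjusted p = 0.97) with the goblet score and the block, and Pcna at 0.00612 (adjusted p = 0.971) over V2 to V6. The pairing by mouse (replicate block) moved the count of members lower in V2 than in V1 from 0 to 7, those with upward curvature from 0 to 2 those lower over V3 to V6 from 0 to 2, and those falling over V2 to V6 from 3 to 23. For slopes it gave 34 members lower and for the ends 34, and it changed no other count of member calls by over 1.5 times.

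The 31 members with a falling slope became 6 of 6 tested at a mean of at least 50 CPM, 2 with the goblet score and 3 over V2 to V6. The 29 lower at the tip became 6 and 3 under the first 2 of these. DESeq2, RLE factors, voom, no filter and thinning gave 31, 31, 28, 26 and 22 falling slopes. Without 1 mouse the counts were 12 to 29 for slopes and 11 to 24 for the ends, and without 1 library 21 to 32 and 13 to 32. Over all genes, falling slopes (2126) became 3720 with total UMI scaling, 891 at 50 CPM, 124 with the goblet score, 309 over V2 to V6 and 1279 to 1761 without 1 mouse, and rising slopes (2063) became 1217, 827, 326, 836 and 1506 to 1887. Genes lower at the tip (1737) became 3102, 803, 126 and 970 to 1452 under the same settings but V2 to V6, and higher ones (1882) 1152, 766, 337 and 1257 to 1623. Without 1 library, falling and rising slopes over all genes were 1769 to 2194 and 1832 to 2101, and genes lower and higher at the tip 1268 to 1842 and 1559 to 1903. Fewer genes, zones or samples enter the 50 CPM, V2 to V6 and left-out fits; the cause of the other shifts was not tested. Most members are near 10 to 50 CPM, so single libraries hold few UMIs of each, which limits the precision of any 1 value.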
